A study of Arabidopsis thaliana with 6 samples.

Results

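The 9 genes described here encode the main storage proteins of the Arabidopsis thaliana seed. They were taken by name from a list of locus tags. The 4 cruciferin genes are CRA1 (AT5G44120), CRB (AT1G03880), CRC (AT4G28520) and AT1G03890, which lies next to CRB and has no symbol of its own in the gene table. The 5 albumin genes are SESA1 (AT4G27140), SESA2 (AT4G27150), SESA3 (AT4G27160), SESA4 (AT4G27170) and SESA5 (AT5G54740). They are 9 of 27444 protein-coding nuclear genes in that table. SESA1 to SESA4 stand in tandem on chromosome 4, and CRB and AT1G03890 are neighbours on chromosome 1, so the 9 genes form 5 loci.

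Cruciferins are globulins and the SESA proteins are small sulphur-rich albumins. Both are made in large amounts in the maturing embryo, are sorted to protein storage vacuoles, and are used as a source of nitrogen and sulphur after germination. In seedlings the genes are normally silent. SWN (SWINGER) is one of the methyltransferases at the heart of Polycomb repressive complex 2, which marks histone H3 and keeps genes of other stages off. VAL1 and VAL2 are repressors with a B3 domain, related to the B3 activators ABI3, FUS3 and LEC2 that switch storage genes on in the embryo, and are known to shut down the seed programme after germination.

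The protein mapped was SWN-GFP, expressed from the SWN promoter (pSWN:SWN-GFP) in a swn mutant, in whole seedlings at an age of 14 days, with chromatin immunoprecipitation by an antibody against GFP and sequencing. The 2 libraries named SWN-GFP had VAL1 and VAL2 intact. The 2 named SWN-GFP val1 val2 carried mutations of both and are called val1 val2 below. All 4 share the transgene and the swn background, and the labels name no allele, no clone and no separate culture for a replicate, so the spread between replicates may be technical. Of the 6 samples of the series, the 2 inputs, 1 per genotype, had no list used here. The question the series title poses is how SWN reaches its targets through VAL1 and VAL2. The tissue label could not be checked against marker genes, since peak lists hold no expression.

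The data are 1 list of called peaks per library. The lists held 8189 and 8666 peaks for SWN-GFP and 9177 and 9618 for val1 val2. Together the peaks covered 5.53 and 5.89 Mb in SWN-GFP and 5.94 and 6.35 Mb in val1 val2. Read totals are unknown, so no counting interval can be given. The median peak was 482 and 485 bp long in SWN-GFP and 452 and 454 bp in val1 val2. Each peak has a fold enrichment, the authors' ratio of fragments at the summit to the local background. Below, this fold is also given as a percentile, the percentage of peaks in the same list with a lower fold (ties at their midpoint), because depth and control of each list are unknown. A gene without a peak in a list did not pass the peak caller's threshold there, which does not show that SWN-GFP was absent. In whole seedlings, fewer cells with bound SWN-GFP and less SWN-GFP per cell cannot be told apart.

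With VAL1 and VAL2 intact, SWN-GFP peaks lay on nearly every storage protein gene. Without them the peaks were narrower or lower in rank at most loci. Some single peaks had no counterpart in the val1 val2 lists. Only 1 of the 9 genes, AT1G03890, had no peak in either of these lists. A gene was counted for a list if any peak touched it or the 1 kb on either side. It was called kept with a peak in all 4 lists, lost with a peak in both SWN-GFP lists only, gained with a peak in both val1 val2 lists only, and mixed otherwise. Of the 9 genes 7 were kept, against 18.1% of all protein-coding genes. AT1G03890 was the 1 lost gene (4.05% of all genes were lost), SESA5 was the 1 mixed gene (14.5%), and 0 were gained (4.89%). By gene span alone 6 were kept (12.6% of all genes) and 1 was lost (2.70%), because SESA3 had no peak on its own span in val1 val2 replicate 1. With only peaks of a fold of at least 4, 3 members were kept (CRA1, CRC and SESA1, against 5.87% of all genes) and CRB was the 1 lost gene (2.95%). The strongest 2000 peaks of each list gave the same members, against 5.24% of all genes kept and 2.46% lost.

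A gene was called covered less when both val1 val2 libraries had fewer bases of it under peaks than each SWN-GFP library, and covered more in the opposite case. Counted over the span and 1 kb on either side, 6 of the 9 genes were covered less (AT1G03890, CRC and SESA1 to SESA4) and 0 more. For the 11413 protein-coding genes that any library had a peak on, these shares were 26.2% less and 32.0% more. By gene span alone the counts were 5 covered less (24.9% of all genes with a peak on the span) and 0 covered more (30.1%). SESA1 was covered less only in its flanks. The windows of SESA1 to SESA4 overlap and share peaks, so these genes are not independent, here or in the count of kept genes. Taken by locus, the tandem, CRC and CRB with AT1G03890 were covered less. At CRA1 and SESA5 the genotypes overlapped. The 9 spans have a summed length of 12283 bp. Peaks covered 8612 and 10134 bp of it in SWN-GFP and 7068 and 7183 bp in val1 val2. These are 9373 ± 1076 and 7126 ± 81.3 bp (SD, n = 2 each), and both values without VAL1 and VAL2 lay under both values with them.

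**Figure D1:**
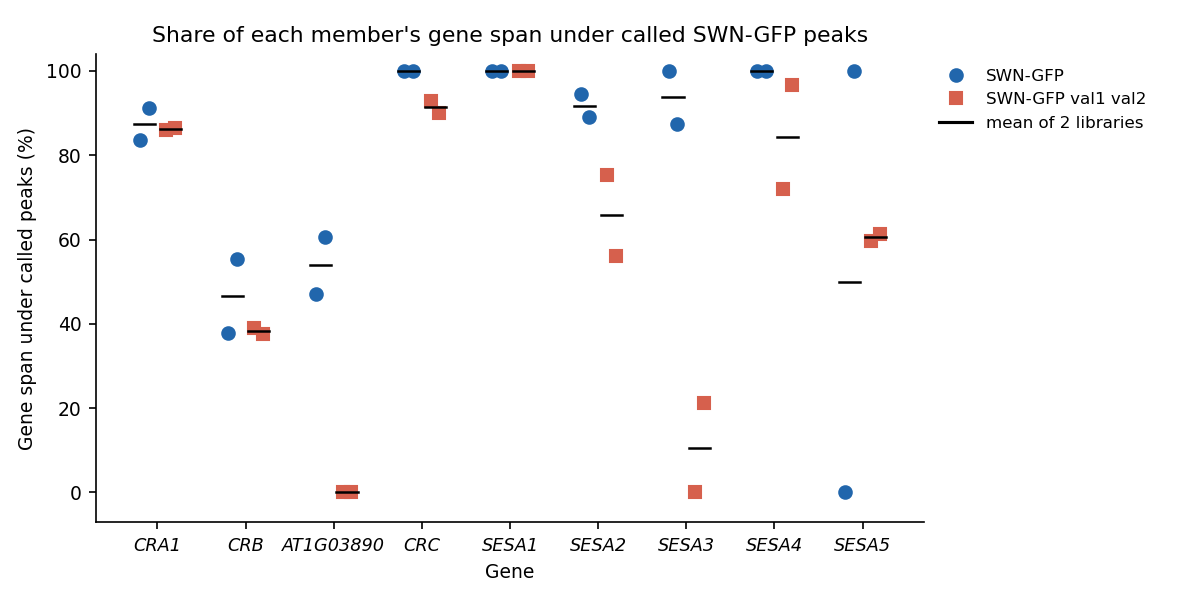
Share of each gene's span (y axis, %) that lay under called SWN-GFP peaks, for the 9 storage protein genes (x axis). Circles are the 2 SWN-GFP libraries, squares the 2 val1 val2 libraries and bars their means. AT1G03890 falls to 0 in both val1 val2 libraries and SESA3 to 0 and 21.2%, while CRA1 stays between 83.5% and 91.2% in all 4.

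At the albumin tandem SESA1 to SESA4, peaks covered less of the region without VAL1 and VAL2, both within and outside the gene spans. The region from 1 kb before SESA1 to 1 kb after SESA4 is 8955 bp long. Peaks covered 5133 bp of it in SWN-GFP replicate 1 and 5872 bp in replicate 2. In val1 val2 they covered 2188 and 2573 bp. The means were 5503 ± 523 and 2381 ± 272 bp (SD, n = 2 each), a difference of -56.7%, and the groups did not overlap. An exact two-sided permutation test gave p = 0.333, the smallest p that 2 libraries against 2 allow, so no locus could reach significance at the usual level. The difference of -3122 bp was -937 bp when the gene spans alone were counted, which make up 2894 of the 8955 bp.

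Outside the 4 gene spans, outer flanks included, peaks covered 2280 and 3156 bp in SWN-GFP and 437 and 629 bp in val1 val2. Between the genes alone they covered 1729 and 2425 of 4061 bp in SWN-GFP and 199 and 450 bp in val1 val2. Within the spans they covered 2853 and 2716 of 2894 bp in SWN-GFP and 1751 and 1944 bp in val1 val2. The small peaks in the gaps between the genes, 1 between SESA3 and SESA4 in both SWN-GFP lists (reaching into SESA3 in replicate 2) and 1 between SESA2 and SESA3 in replicate 2, had no counterpart in the val1 val2 lists. Their folds were only 2.40 to 3.02.

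SESA1 had the highest fold of the tandem in SWN-GFP replicate 1 and in both val1 val2 lists, and SESA4 had it in SWN-GFP replicate 2. Its peak lay at chromosome 4, 13606784 to 13608197 in SWN-GFP replicate 1 and 13606732 to 13608310 in replicate 2, with a fold of 12.8 and 11.4. In val1 val2 it lay at 13607091 to 13608031 in replicate 1 (fold 7.01) and 13607150 to 13608171 in replicate 2 (fold 5.71). Whole coverage of the 703 bp span remained in all 4 lists, while the edges moved inward by 363 bp on the left and 153 bp on the right on average. Replicates of a genotype differed at these edges by 52 to 140 bp. The percentile within each list was 98.5 and 98.2 with VAL1 and VAL2 and 94.2 and 90.8 without.

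SESA4 at the other end of the tandem differed more in rank. Its peak lay at chromosome 4, 13613247 to 13614289 and 13613134 to 13614417 in SWN-GFP, with 102 and 120 fragments at the summit and a fold of 12.1 and 12.6. In val1 val2 it lay at 13613448 to 13614090 and 13613526 to 13614260, with 42 and 51 fragments and a fold of 3.96 and 4.60. The percentile went from 98.3 and 98.7 to 75.9 and 84.2. SESA1 and SESA4 thus stood at nearly the same rank in SWN-GFP, and in both val1 val2 lists SESA1 ranked higher than SESA4.

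SESA3 was the albumin gene of the tandem whose own peak was nearly gone without VAL1 and VAL2. Of its 768 bp span, 768 and 671 bp were covered in SWN-GFP, and 0 and 163 bp in val1 val2. The strongest peak on it had a fold of 8.56 and 7.29 in SWN-GFP, at percentiles 95.3 and 93.3. In val1 val2 replicate 2 a peak of 403 bp with a fold of 2.39, at percentile 23.3, was left, with its summit outside the gene span. Replicate 1 had no peak on the span. The gene counted as kept there only because the SESA4 peak reached 116 bp into its 1 kb flank.

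SESA2 had the lowest fold of the 4 genes in SWN-GFP when each gene is taken by its strongest peak, with 3.47 and 4.90, and in replicate 1 the summit lay outside the gene. The fold in val1 val2 was 3.04 and 2.81. Of its 735 bp span, 694 and 654 bp were covered in SWN-GFP and 553 and 413 bp in val1 val2. Peak length went from 1095 and 1203 bp to 604 and 413 bp. The percentiles of 60.4 and 82.8 in SWN-GFP differed widely between replicates. Those of val1 val2, 54.3 and 49.2, lay not far under the first and far under the second.

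**Figure D2:**
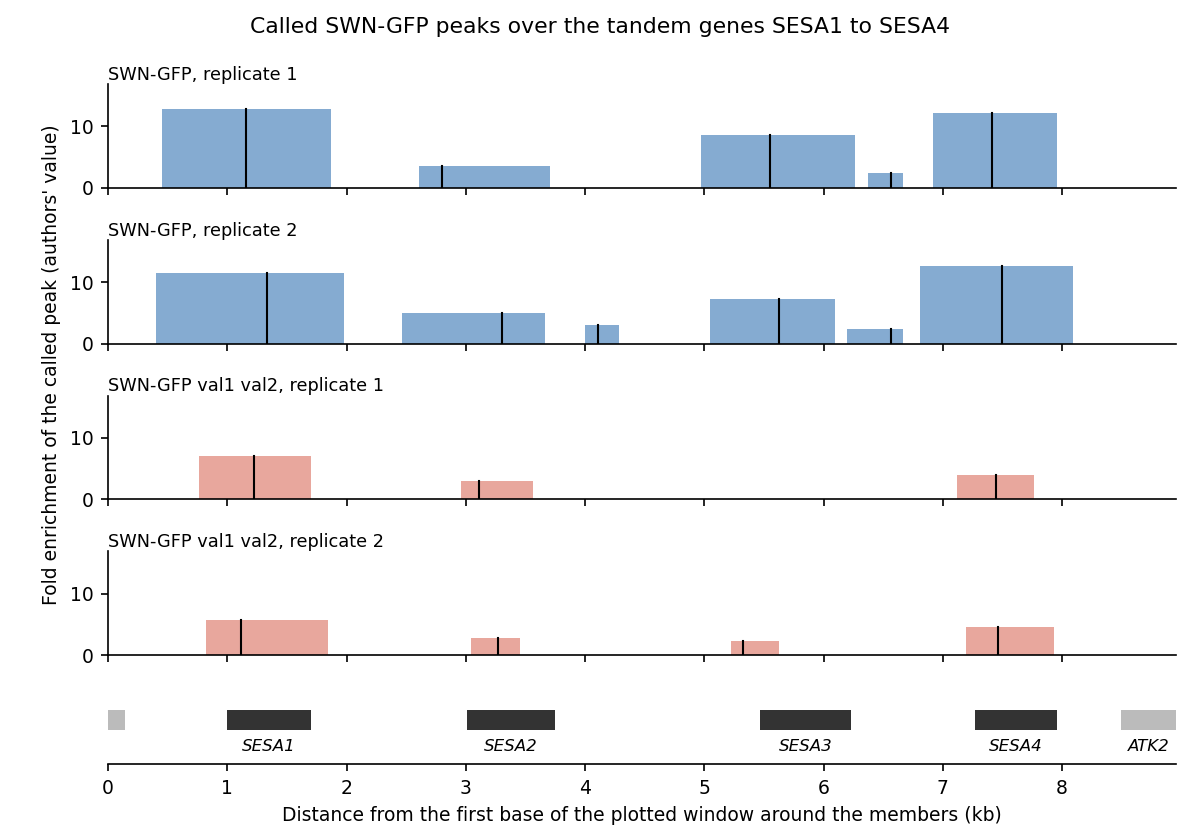
Called peaks over the SESA1 to SESA4 tandem in each library, with distance in kb from the first base of the plotted window on the x axis and the authors' fold at the summit as the height of each box; black lines mark summits, dark bars the 4 members and grey bars neighbouring genes. The 5 and 6 peaks of the SWN-GFP libraries become 3 and 4 narrower and lower peaks in val1 val2.

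CRC lay in 1 broad SWN-GFP domain that it shared with its neighbour NAC074 (AT4G28530), a NAC transcription factor gene, and in whose place val1 val2 had several shorter peaks. In SWN-GFP replicate 1 a single peak ran over both genes on chromosome 4, from 14087034 to 14092993. The peak of replicate 2 ran from 14087021 to 14092891. Its length of 5960 and 5871 bp exceeded that of 99.945% and 99.96% of the peaks in the same list. The fold was 14.9 and 13.5, at percentiles 99.2 and 99.0, with the summit in NAC074 and not in CRC.

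In val1 val2 the strongest peak on CRC lay at 14087387 to 14089052 in replicate 1 and 14087510 to 14089052 in replicate 2. It ended at the same base in both, had its summit in CRC, and had a fold of 4.24 and 4.73, at percentiles 79.3 and 85.2. A further weak peak lay over the right part of the gene in each list, with a fold of 2.40 and 2.58. Together they covered 2082 and 2017 of the 2241 bp span, which was covered whole in both SWN-GFP lists. CRC thus remained almost fully under peaks in all 4 lists, while the fold and rank of those peaks did not overlap between the genotypes.

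Over CRC and 1 kb on either side, 3770 ± 9.19 bp were covered in SWN-GFP and 2418 ± 41.0 bp in val1 val2 (SD, n = 2 each). This difference of -35.9% was far larger than the gap between replicates (exact permutation p = 0.333). NAC074 was covered over 2880 and 2956 of its 4414 bp in SWN-GFP and 1162 and 778 bp in val1 val2. Its strongest peaks there had a fold of 3.25 and 3.31. Because the SWN-GFP summit lies in NAC074, the fold of the whole domain cannot be assigned to CRC alone, and counting only peaks with a summit within 1 kb of CRC turns the difference of -1351.5 bp to 2320 bp. It was -191.5 bp over the gene span alone, and -2165 bp with peaks of a fold of at least 4.

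**Figure D3:**
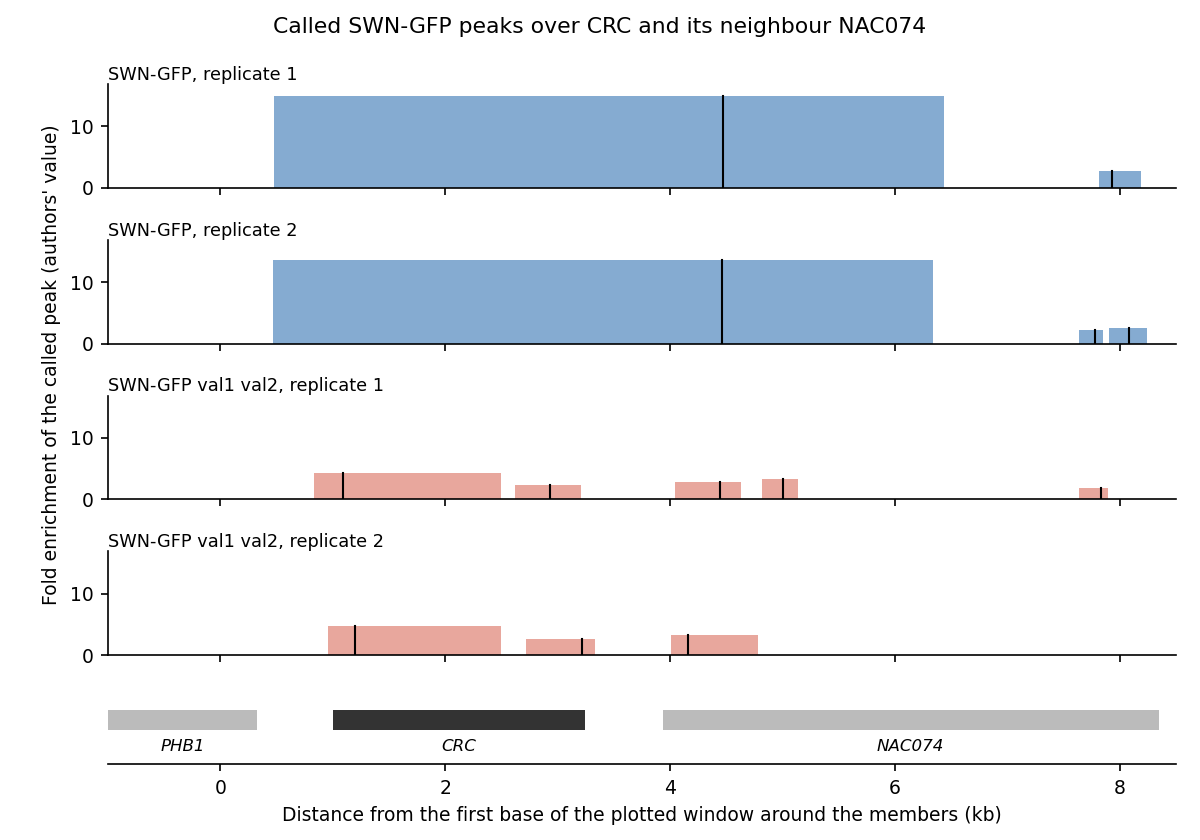
Called peaks over CRC and NAC074 in each library, with distance in kb from the position 1 kb before CRC on the x axis and the authors' fold at the summit as box height; black lines mark summits. A single peak of 5960 or 5871 bp spans both genes in SWN-GFP, and separate peaks with a fold of at most 4.73 replace it in val1 val2.

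CRA1 lay under peaks over most of its length in both genotypes. A pair of peaks lay on it in all 4 lists, at chromosome 5, 17756329 to 17757423 and 17757675 to 17758332 in SWN-GFP replicate 1. In val1 val2 replicate 1 they lay at 17756262 to 17757389 and 17757579 to 17758257. Of the 2099 bp span, 1753 and 1915 bp were covered in SWN-GFP and 1807 and 1815 bp in val1 val2, and these groups overlapped. Over the span and 1 kb on either side, the means were 1885 ± 187 and 1811 ± 5.66 bp (SD, n = 2 each, exact permutation p = 1). Without SWN-GFP replicate 2 the difference of -74 bp becomes 58 bp, and with only peaks of a fold of at least 4, or the strongest 2000 of each list, it is -822.5 bp, since those limits remove the right peak in val1 val2.

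The fold of the CRA1 peaks did separate the genotypes. The peak with the higher fold, on the left of the gene, had a fold of 5.29 and 6.01 in SWN-GFP and 4.48 and 4.27 in val1 val2, and percentiles of 84.1 and 89.2 against 81.8 and 81.5. The right peak had a fold of 4.56 and 5.19 against 3.17 and 2.78, at percentiles 77.9 and 84.9 against 58.7 and 47.5. Its rank therefore differed more between the genotypes than that of the left peak. The left peak had 50 and 64 fragments at the summit in SWN-GFP and 45 and 49 in val1 val2. For the right peak these were 53 and 65 against 42 and 35. Local background, worked out from summit and fold, was 8.64 and 9.81 against 9.28 and 10.7 fragments at the left peak. At the right peak it was 10.8 and 11.7 against 12.6 and 12.0. The part of the background in these folds was not tested. At FLA13, the next gene to the right and outside the 1 kb flank, the peak had 42 and 44 fragments at the summit in SWN-GFP and 42 and 42 in val1 val2. Its fold was 4.30 and 4.05 against 4.16 and 3.52, at percentiles 74.7 and 73.8 against 78.3 and 71.3.

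At CRB and AT1G03890 the peaks on 1 gene stayed in part and those on the other were missing without VAL1 and VAL2. AT1G03890 had peaks at chromosome 1, 989422 to 990064 and 990167 to 990383 in SWN-GFP replicate 1 and 989260 to 989913 and 990137 to 990587 in replicate 2. They covered 860 and 1105 bp of its 1823 bp span. No peak of either val1 val2 list lay within 1 kb of it. The stronger of its peaks had a fold of only 3.29 and 2.89, at percentiles 55.7 and 46.1, so the gene had been in the middle of the SWN-GFP lists.

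CRB kept a peak near its right end. It lay at 987456 to 988010 and 987469 to 988087 in SWN-GFP, with a fold of 4.78 and 4.88, and at 987581 to 988045 and 987515 to 988069 in val1 val2, with a fold of 3.27 and 2.81. The percentile went from 80.1 and 82.6 to 61.6 and 49.3. Its summit had 43 and 50 fragments in SWN-GFP and 38 and 39 in val1 val2. The local background there was 8.21 and 9.45 fragments against 10.9 and 13.2, and its part in the fold was not tested. A second peak over the left end, with a fold of 2.80 and 2.76 in SWN-GFP, was missing in both val1 val2 lists. The span of 2396 bp was covered over 905 and 1327 bp in SWN-GFP and 933 and 898 bp in val1 val2, so the groups overlapped.

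A middle peak on CRB lay at 986898 to 987365 and 986924 to 987266 in val1 val2 and at 986849 to 987217 in SWN-GFP replicate 2, and replicate 1 had none there. Its fold was 2.28 and 2.10 in val1 val2 and 2.18 in SWN-GFP replicate 2. The summit was higher in val1 val2, with 40 and 42 fragments against 23 in SWN-GFP replicate 2. The local background worked out from summit and fold was 16.96 and 19.5 fragments in the val1 val2 lists and 10.02 in SWN-GFP replicate 2. The part of this difference in the calls was not tested.

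Over both genes with their flanks, 7270 bp in all, peaks covered 1765 and 2472 bp in SWN-GFP and 933 and 898 bp in val1 val2. The means were 2119 ± 500 and 915.5 ± 24.7 bp (SD, n = 2 each), a difference of -56.8% (exact permutation p = 0.333). The groups did not overlap, and AT1G03890 alone had 982.5 ± 173 bp in SWN-GFP against 0 bp (SD, n = 2 each). At FLA9, the gene on the other side of CRB, the strongest fold went the opposite way, with 2.80 and 3.10 in SWN-GFP and 3.47 and 4.23 in val1 val2. With only peaks of a fold of at least 4 the difference over CRB and AT1G03890 was -587 bp, and no peak on AT1G03890 passed that limit.

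SESA5, which stands alone on chromosome 5, had covered lengths that overlapped between the genotypes. It had no peak in SWN-GFP replicate 1 and 1 peak in each other list. These lay at 22238289 to 22239268 in SWN-GFP replicate 2 and at 22238693 to 22239316 and 22238679 to 22239492 in val1 val2. The fold was 3.56, then 3.45 and 2.72, near the middle of the lists. Its 830 bp span was covered over 0 and 830 bp in SWN-GFP and 495 and 509 bp in val1 val2 (exact permutation p = 1 over span and flanks). The SWN-GFP replicates thus bracketed both other values. Over span and flanks the difference was 229 bp, and -261 bp without SWN-GFP replicate 1. At AT5G54720, a neighbour on the left outside the 1 kb flank, the peak had a fold of 5.17 and 4.83 in SWN-GFP and 2.43 and 2.58 in val1 val2, with lengths of 989 and 875 bp against 225 and 383 bp.

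**Figure D4:**
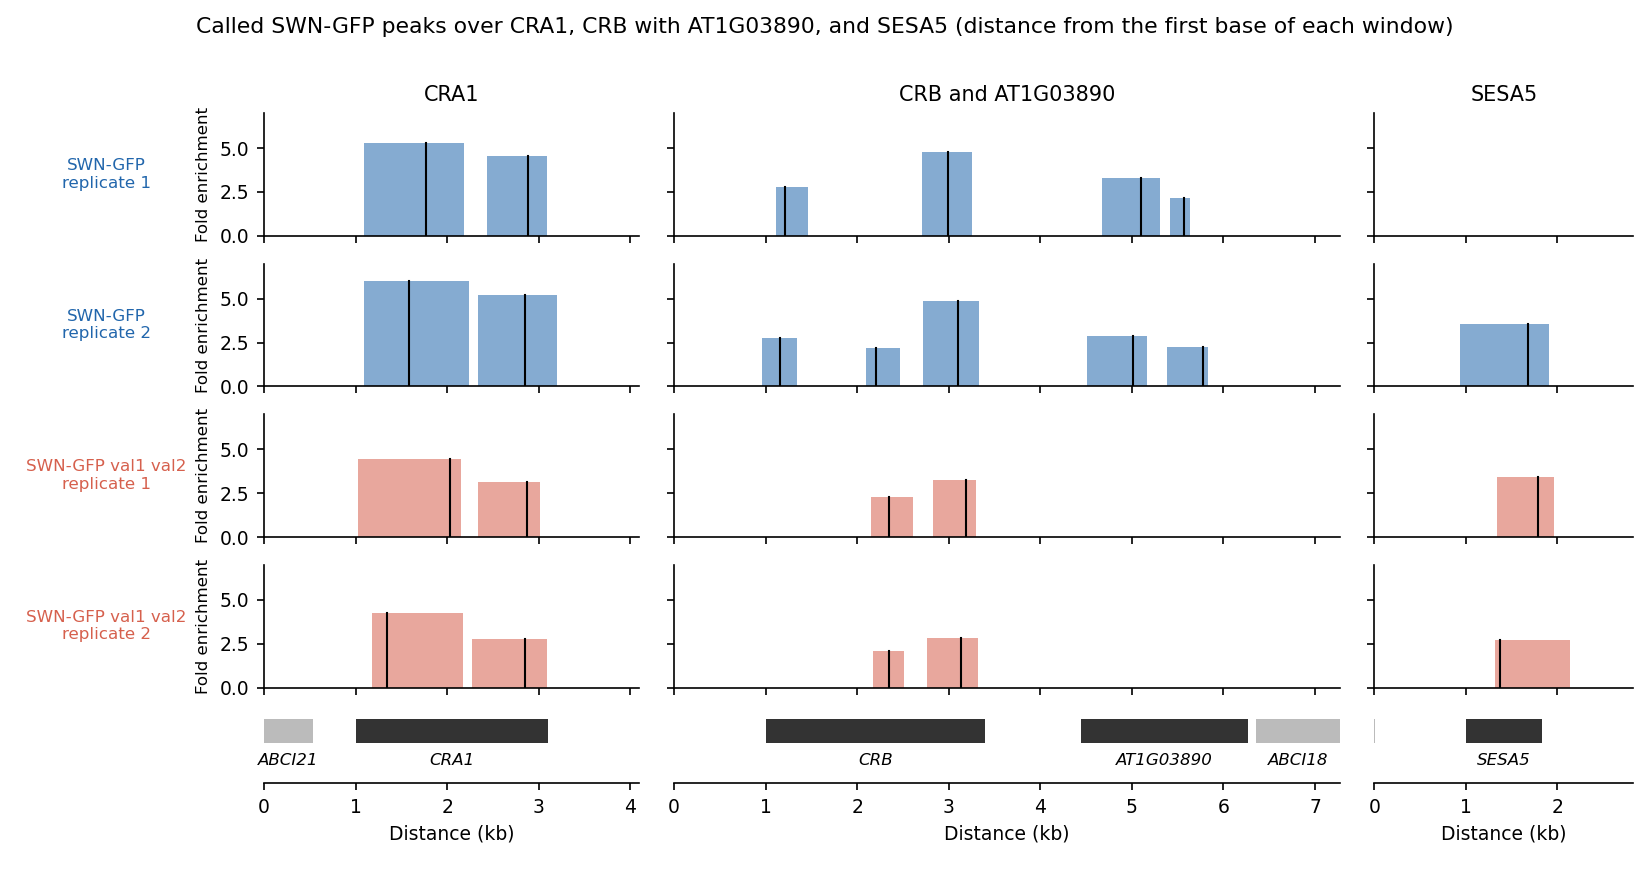
Called peaks over CRA1, over CRB with AT1G03890, and over SESA5 in each library, with distance in kb from 1 kb before the first member on the x axis and the authors' fold at the summit as box height; black lines mark summits. The CRA1 pair of peaks is present in all 4 libraries, the AT1G03890 peaks in the 2 SWN-GFP libraries only, and the SESA5 peak is missing in SWN-GFP replicate 1.

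The kept storage genes ranked lower in the val1 val2 lists. At each of the 7 the percentile of the strongest peak over span or flanks was lower in both of these than in either SWN-GFP library. The other members, AT1G03890 and SESA5, lack a peak in at least 1 library and have no such rank. Among all 4971 kept protein-coding genes this held for 28.9%, and 39.2% ranked higher by the same rule. The tandem genes share peaks across their flanks, and SESA3 takes the SESA4 peak here, so the 7 genes are not independent. The lowest local background of any peak was 7.53 and 8.60 fragments in SWN-GFP and 8.79 and 10.1 in val1 val2. It enters each fold, and its part in these differences was not tested. The order of the genes differed between the genotypes. In SWN-GFP the highest percentiles on the spans were those of CRC, SESA4 and SESA1, all between 98.2 and 99.2, but the value of CRC there is that of the domain with its summit in NAC074, and in val1 val2 that of a peak with its summit in CRC. In val1 val2 SESA1 stood first with 92.5 ± 2.4, followed by CRC with 82.2 ± 4.2, CRA1 with 81.7 ± 0.20 and SESA4 with 80.0 ± 5.8 (SD, n = 2 each). The last 3 did not differ beyond their spread.

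**Figure D5:**
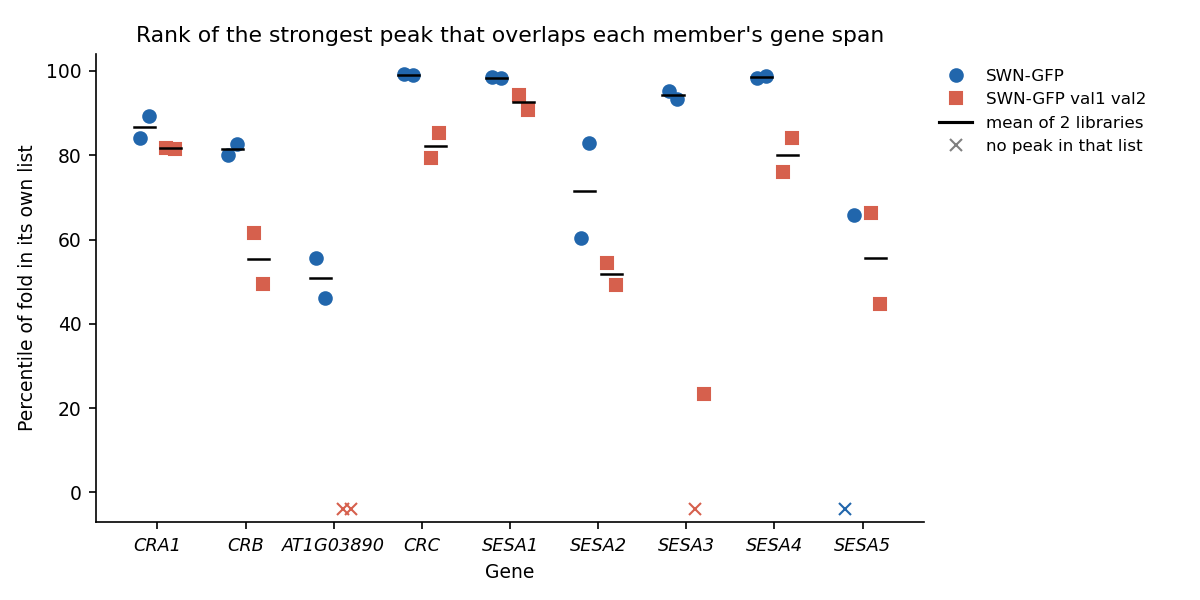
Percentile of fold within its own list (y axis) of the strongest peak that overlaps each gene's span, for the 9 storage protein genes (x axis). Circles are SWN-GFP libraries, squares val1 val2 libraries, bars the mean of 2 and crosses lists without a peak. CRC, SESA1 and SESA4 stand above 98 in SWN-GFP, and SESA1 alone stays above 90 in both val1 val2 libraries.

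Other genes of the seed programme were counted in 3 lists, by span and 1 kb on either side. Of all 27444 protein-coding genes, 11413 had a peak in any library by this rule, 14.5% were mixed and 4.89% gained. Of 13 genes for other stored seed proteins, 5 were lost (4.05% of all genes), 2 kept (18.1%), 4 mixed and 2 without a peak, and 0 were gained. The lost ones were OLEO1 and OLEO3, which encode oleosins of the oil body surface, the peroxiredoxin gene PER1, the vicilin-like gene PAP85 and AT4G36700. In the SWN-GFP lists PER1 had a fold of 9.72 and 8.87, OLEO1 of 8.58 and 8.73, and OLEO3 of 3.73 and 4.42. AT4G36700 had 3.24 and 3.23 and PAP85 2.46 and 2.81, so the lost genes had both weak and strong peaks in SWN-GFP. EM1 and EM6, which encode late embryogenesis abundant proteins, were kept. The fold at EM1 was 4.10 and 3.95 in SWN-GFP and 6.08 and 6.71 in val1 val2, the opposite order to that of the 7 kept storage genes. At EM6 the fold was 4.74 and 3.38 against 4.06 and 4.31, so the genotypes overlapped. Peaks were found on 11 of the 13 genes, of which 6 were covered less and 2 more (26.2% and 32.0% of all genes with a peak).

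Among 14 transcription factors of the seed programme, 6 were kept (18.1% of all genes), 4 were mixed, 4 had no peak, and 0 were lost or gained. Of the 10 with a peak 5 were covered less and 2 more (26.2% and 32.0% of all genes with a peak). The bZIP factor bZIP67 had a fold of 9.61 and 7.45 in SWN-GFP and 2.23 and 2.73 in val1 val2, and ABI4 had 6.71 and 6.50 against 2.93 and 4.04. Among the B3 activators, FUS3 had 24.7 and 22.7 against 12.1 and 13.1, and ABI3 had 7.04 and 7.04 against 4.13 and 4.27. LEC2, the other B3 activator, went the opposite way, with 7.29 and 7.78 against 9.21 and 11.7. So did MYB118, a MYB factor of the endosperm, with 3.27 and 3.48 against 5.002 and 4.71. The bZIP genes bZIP10, bZIP25, bZIP53 and EEL had no peak in any list.

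Of 6 genes for the processing and sorting of storage proteins, 5 had no peak in any list. Only 11413 of all 27444 protein-coding genes had one in any list. The exception was beta-VPE, the vacuolar processing enzyme of seeds, which cleaves the precursors of cruciferins and albumins. Beta-VPE had a fold of 4.20 and 4.96 in SWN-GFP and no peak in val1 val2, and so was lost like AT1G03890 (4.05% of all genes). The VPE genes alpha-VPE, gamma-VPE and delta-VPE, the sorting receptor gene VSR1 and the retromer gene MAG1 made up the other 5.

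The genes whose ranks over the 4 lists were most like those of each locus were also sought. Each locus was represented in each list by its strongest peak alone, and likeness was the Euclidean distance of the 4 percentiles. The search ran over named protein-coding genes outside the members, genes within 1 kb of them and the seed lists. The tandem was thus represented by the SESA1 or SESA4 peak, and CRB with AT1G03890 by a CRB peak. CRC in SWN-GFP was represented by the domain with its summit in NAC074. For the SESA1 to SESA4 tandem the nearest genes were EXPA20, an expansin gene, and AQI, which have the same strongest peak (distance 0.922). For CRC they were JAZ10, a repressor of jasmonate signalling, and GA3OX2, a gibberellin oxidase gene (2.92 and 3.64). For CRA1 they were URO and AGP27 (1.22 and 1.73). The pair for CRB with AT1G03890, CALS5 and RBL15, was less close (7.08 and 8.20). For SESA5 the nearest gene was DEG16 (distance 0), a neighbour just over 1 kb away, and then NUDT18 (15.2). The flank of DEG16 is touched by the right edge of the SESA5 peak, so both take the same peak.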

How the data were processed

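The 9 members and the gene lists were chosen with earlier results of these data known. Per the submitters' processing notes, the authors used Bowtie2, SAMtools, Picard and MACS2 on build TAIR10; their versions and settings, and which control went with which list, are not stated in the material at hand. The deposited lists lack a header line, so the meaning of their 10 columns was taken from the usual MACS2 layout. The deposited pileup is a signal, a whole number of fragments at the summit with no visible scaling to depth. The deposited −log10 p and −log10 q come from the peak caller, with no recalculation, and the lowest −log10 q per list was 1.31 to 1.33. The deposited fold is the authors' ratio of the summit to local background, used here to describe and rank peaks within a list. Local background was computed as (pileup + 1)/fold − 1, and its lowest value per list was 7.53 to 10.1 fragments. Coordinates are those of the lists, 1-based.

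Gene spans came from a RefSeq table of assembly TAIR10.1, whose coordinates are not printed. It matched all 9 locus tags. Its place on the lists was checked by shifting: 69.9% of SWN-GFP replicate 1 summits lay in protein-coding spans, and 46.6% to 59.5% did after shifts of 1000 to 5000 bp. Overlap counted from 1 bp. Class calls and lengths were tested on simulated lists, with genes far enough apart that no windows overlapped. Peaks shared by neighbouring genes, as in the SESA tandem, were not simulated. The table gives no strand, so the planned setting with the upstream flank alone was not run, and no sequence was used here, so the planned motif search was not run. All 9 members were to be named, and of the other seed genes those lost or gained and up to 4 others. For each locus the 2 genes nearest in rank were to be named. Further named seed genes were added after their values were seen. Exact two-sided permutation tests compared covered length per locus. No label ties libraries with the same replicate number to each other. Python 3.11.15, pandas 2.3.3, NumPy 2.4.6, SciPy 1.17.1 and matplotlib 3.10.9 were used.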

Additional observations from a re-analysis of the deposited data

How the results depend on the processing

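The 7 kept and 1 lost members, the 6 covered less and the direction at each locus were recomputed under 7 other ways to choose peaks or windows and without each library in turn. With peaks of a fold of at least 4 and with the strongest 2000 peaks of each list, 3 members were kept in place of 7 (CRA1, CRC and SESA1), and the 1 lost gene was CRB and not AT1G03890, which then had no peak in any list's selection. No SESA5 peak passed either limit, so its locus has no value there. With summits required in the window, 1 member, CRC, counted as gained, 1 as covered more, and the difference at the CRC locus turned from -1351.5 to 2320 bp, since the SWN-GFP summit lies in NAC074. Leaving out single libraries, the number kept was 7 to 8, gained 0 to 1, covered less 6 to 9 and covered more 0 to 2. The difference in covered length (SWN-GFP val1 val2 minus SWN-GFP) ranged from -206 to 58 bp at CRA1, where it turned without SWN-GFP replicate 2, and from -261 to 719 bp at SESA5, where it turned without SWN-GFP replicate 1. It ranged from -3491.5 to -2752.5 bp at SESA1 to SESA4, from -1380.5 to -1322.5 bp at CRC and from -1556.5 to -849.5 bp at CRB with AT1G03890. Among the 7 other ways, the CRC value turned only with the summit rule and no other locus turned. The differences ran from -822.5 to -23 bp at CRA1, from -1374.5 to -587 bp at CRB with AT1G03890, from -3122 to -937 bp at the SESA tandem and from 87 to 229 bp at SESA5. Apart from the summit rule they ran from -2165 to -191.5 bp at CRC. By gene span alone the order of the loci differed, with -1183 bp at CRB with AT1G03890 against -937 bp at the tandem. Of the other 33 seed genes, with the strongest 2000 peaks, 2 were kept in place of 8, 2 were gained in place of 0 and 7 were covered less in place of 12.

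Pairing libraries by replicate number, as a replicate block with an exact sign-flip permutation, left the differences at -74, -1203, -1351.5, -3122 and 229 bp for CRA1, CRB with AT1G03890, CRC, the SESA tandem and SESA5, and p was 0.5 or 1, where 0.5 is the smallest p that 2 pairs allow. Pairing cannot change a difference of means, and neither test could reach the usual level here, so the block is no check of these results. Depth is unknown, so the absence of a weak peak such as those on AT1G03890 and SESA5 is uncertain.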
